A study of Macaca fascicularis with 2 samples.

Results

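DAZL, DDX4, DND1, STK31, BOLL and NANOS3 are 6 germline genes for RNA-binding proteins or their partners, chosen by name, and all 6 are rows of a deposited table of 18446 genes. The table holds raw counts of unique molecular identifiers (UMIs, tags that mark single captured RNA molecules) for single cells of whole fetal ovaries of the monkey Macaca fascicularis, untreated and of no stated genotype. A fetus at embryonic day 84 (E84) and a fetus at E116 each gave 1 droplet library, made from its pair of ovaries and from the 3′ ends of polyadenylated RNA. Cell barcodes end in 1 or 2 and nothing ties an ending to a stage, so the 20967 cells were pooled and no result is given by stage. Each ending is treated as an unlabelled set of cells without replicates or a test between groups. Differences between the endings cannot be assigned to stage, fetus or library.

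In germ cells, RNA-binding proteins decide which stored or newly made mRNAs are translated, held back or destroyed, and much of the passage from a dividing primordial germ cell through meiosis to a growing oocyte is controlled at that level. NANOS3 and DND1 act early, silencing mRNAs together with the deadenylation machinery and keeping primordial germ cells alive. DAZL switches on translation of meiotic mRNAs and makes germ cells able to answer the meiotic signal, and its relative BOLL is the family member known from meiosis itself. DDX4 (VASA) is an RNA helicase of the germ granule, where small piRNAs are made, and STK31 joins a Tudor domain, the module that binds PIWI proteins, to a kinase-like domain.

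The 10621 cells with barcodes ending in 1 hold 59899960 UMIs and the 10346 ending in 2 hold 88924217 UMIs, and 27 barcodes occur with both endings. The 16292 cells of 200 to 3000 detected genes, the study's own limits, have a median of 2670 UMIs and were clustered without the 6 genes. They are more cells than the study reports to have kept with these limits, so the sets of cells differ. Clusters of 4105 germ cell-like and 9345 somatic cells were named from markers that do not include the 6 genes, and 11 to 22 markers of the germ cell lists passed in each of the 4 germ cell-like clusters. Sub-clusters of the germ cell-like cells gave 81 cells of a mitotic step (its marker list includes NANOG and POU5F1), 1453 of a retinoic acid (RA)-responsive step (ZGLP1, REC8), 1021 of a meiotic step (SYCP1, TEX12) and 477 of an oogenesis step (FIGLA, ZP3). Sub-clusters of 630, 299 and 144 cells, led by collagen genes, by RGS4 and IFI27, and by mitochondrial genes, stayed unnamed. Levels are summed UMIs of a group scaled to a common total (CPM) with exact 95% Poisson intervals, which cover counting error only. They were not divided by transcript length, since each molecule is counted at its 3′ end. The total includes mitochondrial UMIs, so a high mitochondrial share lowers the CPM of all other genes.

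The 6 genes followed different courses over these steps. NANOS3 was at its highest in the mitotic step and was not found in the meiotic and oogenesis steps. DAZL was already high in the mitotic step and lowest in the oogenesis step, while DDX4 and BOLL were highest in the meiotic step. STK31 was higher in the meiotic than in the RA-responsive step. Its meiotic and oogenesis levels did not differ beyond counting error in these cells. DND1 was lower in the RA-responsive than in the mitotic step. Its level was highest in the oogenesis step of these cells, but not between large meiotic and oogenesis cells of the same barcode ending 2. Between those large cells of ending 2, STK31 was lower in the oogenesis step. Within ending 1, with only 11 large oogenesis cells, STK31 was higher in them than in large meiotic cells.

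**Figure D1:**
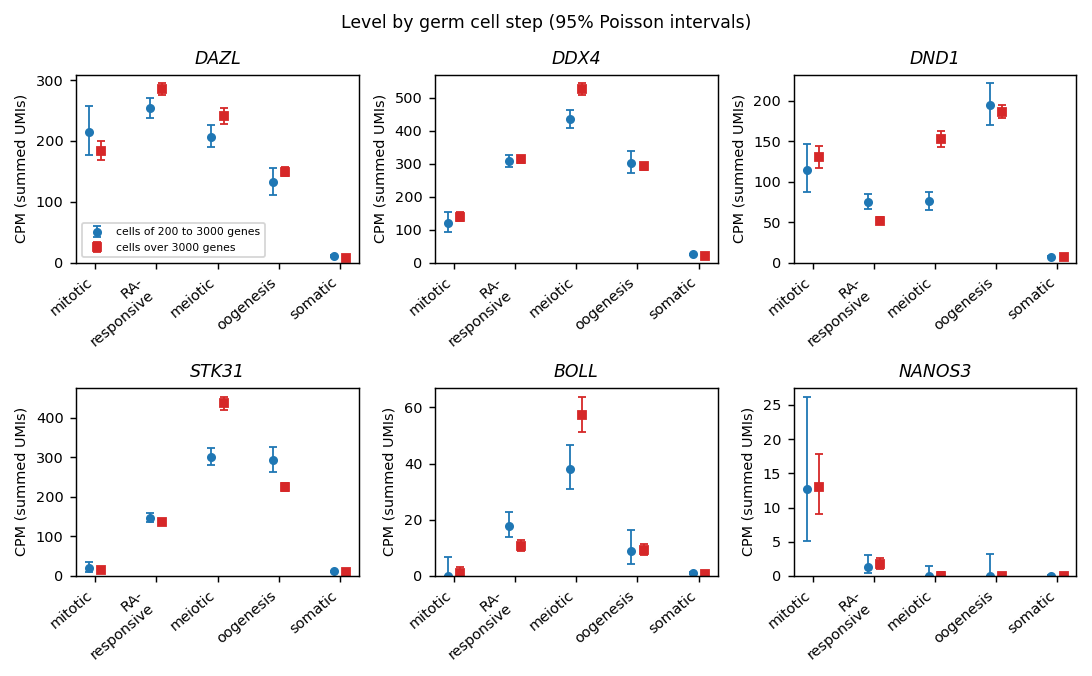
Level of each gene in CPM on the vertical axis (linear, its own range in each panel) for the 4 germ cell steps and for somatic cells, with 95% Poisson intervals; circles are cells of 200 to 3000 genes and squares are cells over 3000 genes. The order of steps is alike in both sets of cells for DDX4, STK31, BOLL and NANOS3, while DND1 in the meiotic step differs between them (76.0 against 152 CPM).

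NANOS3 was the rarest of the 6. It had 97 UMIs in the whole table, 7 of them in the 81 mitotic cells of 200 to 3000 genes (12.7 CPM, 5.11–26.2) and 5 in the 1453 RA-responsive cells (1.33 CPM, 0.43–3.11). Among meiotic and oogenesis cells it had 0 UMIs, where 3 UMIs would have been 1.21 and 2.64 CPM. Its mitotic level was thus 9.55-fold that of the RA-responsive step (2.61–38.2). In 9345 somatic cells it had 1 UMI.

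DND1, the partner of NANOS proteins, stood at 114 CPM (87.9–146) in mitotic cells, 75.1 CPM (66.6–84.4) in RA-responsive cells, 76.0 CPM (65.5–87.6) in meiotic cells and 194 CPM (170–222) in oogenesis cells. The intervals of the RA-responsive and meiotic steps overlap nearly whole, and the oogenesis interval lies above all others. The oogenesis level was 2.56-fold the meiotic one (2.10–3.12), but nearly all cells of the 2 steps differ in barcode ending, and the difference fell under 2-fold in several of the alternative settings given at the end.

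DAZL was at 214 CPM (177–257) in mitotic, 254 CPM (238–271) in RA-responsive, 207 CPM (190–226) in meiotic and 132 CPM (112–155) in oogenesis cells. With both endings pooled, the mitotic level cannot be set apart from the RA-responsive or the meiotic one by its interval. The RA-responsive level was 1.23-fold the meiotic one (1.10–1.37), and the meiotic level 1.57-fold that of the oogenesis step (1.31–1.89). Within ending 1, which holds all the mitotic cells, the RA-responsive level was 1.297-fold the mitotic one (1.07–1.59).

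DDX4 stood at 119.8 CPM (92.7–152) in mitotic, 309 CPM (292–327) in RA-responsive, 435 CPM (410–462) in meiotic and 304 CPM (272–337) in oogenesis cells. From the mitotic to the RA-responsive step it was 2.58-fold higher (2.01–3.36), and 2.38-fold (1.85–3.11) within ending 1, which holds all the mitotic cells. The RA-responsive and oogenesis levels did not differ beyond their intervals. STK31 showed the widest range of the genes with many UMIs. It was at 20.0 CPM (9.97–35.7) in mitotic, 147 CPM (135–160.0) in RA-responsive, 301 CPM (280–324) in meiotic and 293 CPM (262–326) in oogenesis cells. The step into the RA-responsive cells was 7.37-fold (4.09–14.9), and 5.59-fold (3.08–11.3) within ending 1. That into the meiotic cells was 2.05-fold (1.83–2.29), and the last pair of levels did not differ beyond the intervals (0.97-fold, 0.85–1.11).

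BOLL had 0 UMIs in mitotic cells, where 3 UMIs would have been 5.45 CPM. It reached 17.8 CPM (13.8–22.7) in RA-responsive and 38.2 CPM (30.9–46.7) in meiotic cells, and 8.80 CPM (4.22–16.2) remained in oogenesis cells. Set against those 3 UMIs the RA-responsive level was at least 3.27-fold higher, and within ending 1, which holds all the mitotic cells, at least 2.34-fold. The counting interval of the ratio itself starts lower, at 2.59 and 1.79. The meiotic level was 4.34-fold that of the oogenesis step (2.26–9.34).

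To set these courses beside all genes, a gene was counted as changed where its CPM, with 10 CPM added on both sides, differed at least 2-fold. From the mitotic to the RA-responsive step, 3 of the 6 genes were higher (DDX4, STK31 and BOLL), against 11.6% of the 8769 genes with at least 10 CPM in either step, and 1 was lower (NANOS3, just past the 2-fold line), against 7.85%. NANOS3 was under 10 CPM in the later steps and was not tested there. From the RA-responsive to the meiotic step 0 of 5 passed in either direction, against 7.18% higher and 4.85% lower, although STK31 came close at a log2 ratio of 0.99. From the meiotic to the oogenesis step DND1 was higher and BOLL lower, 1 gene each against 10.8% and 13.6%. On this log2 scale the median was 0.77 over 6 genes in the first comparison, and 0.48 and −0.51 over the 5 tested genes in the other two, and that of all genes tested was 0.10, 0.03 and −0.12. These are descriptions of 6 chosen genes in 1 pooled sample.

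Most of the 6 genes' molecules lie outside the limits just used. The 4675 cells over 3000 genes carry between 73.7% (BOLL) and 86.6% (NANOS3) of each gene's UMIs in the table. Clustered with no upper limit and named in the same way, they hold 175 mitotic, 622 RA-responsive, 352 meiotic and 220 oogenesis cells. The medians are 14672, 15656, 15749.5 and 38198 UMIs in that order. A further 406 large germ cell-like cells, with a median of 23846.5 UMIs, matched no step. They count as germ cell-like below but belong to none of the steps. An unnamed germ cell sub-cluster of that clustering (459 cells, median of 21167 UMIs) had PTGDS, EGR3, SOST and the granulosa marker KITLG among its leading genes. Whether such large cells include pairs of cells in 1 droplet could not be told. The doublet caller Scrublet called 0 cells for either barcode ending and so has not worked on this table.

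In these large cells STK31 and BOLL showed larger steps into the meiotic cells than in the smaller ones. NANOS3 was at 12.9 CPM (9.11–17.8) in mitotic and 1.72 CPM (1.04–2.69) in RA-responsive cells, 7.53-fold lower (4.22–13.9), with 0 UMIs in meiotic and oogenesis cells. STK31 went from 14.3 CPM (10.3–19.5) in mitotic over 137 CPM (130–144) in RA-responsive to 436 CPM (419–453) in meiotic cells, and was 1.94-fold lower again (1.84–2.06) in oogenesis cells at 224 CPM (215–234). BOLL went from 10.7 CPM (8.84–12.8) in RA-responsive to 57.3 CPM (51.4–63.7) in meiotic cells, a 5.37-fold step (4.34–6.67), and to 9.25 CPM (7.46–11.3) in oogenesis cells, where the meiotic level was 6.20-fold higher (4.91–7.89). Its mitotic level rested on 3 UMIs.

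DAZL in the large cells was at 184 CPM in mitotic, 285 CPM in RA-responsive, 241 CPM in meiotic and 149 CPM in oogenesis cells, and DDX4 at 139, 314, 526 and 292 CPM in the same order. Both orders of steps are those of the smaller cells, apart from the place of the mitotic step for DAZL. DND1 was at 130.5 CPM (118–144) in mitotic cells and 51.5 CPM (47.4–55.9) in RA-responsive cells, 2.53-fold lower (2.22–2.89), and at 152 CPM (143–163) in meiotic and 187 CPM (178–195) in oogenesis cells. So in large cells the low point of DND1 was the RA-responsive step alone.

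With the same 2-fold rule in large cells, DDX4 and STK31 were higher and DND1 lower in the RA-responsive than in the mitotic step, 2 and 1 of the 6 genes against 10.6% and 5.74% of all genes tested. NANOS3, lower by this rule in the smaller cells, did not pass it here (log2 ratio −0.97). DND1, STK31 and BOLL were higher in the meiotic step, 3 of 5 against 8.62%, and BOLL was lower in the oogenesis step, 1 of 5 against 15.9%. There 0 of 5 were higher, against 11.8%.

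The 2 barcode endings divide the steps unevenly, and this bears on the last comparison. Of cells of 200 to 3000 genes, the mitotic cells were all of ending 1, the meiotic cells 984 of ending 1 and 37 of ending 2, and the oogenesis cells 45 and 432. There step and ending cannot be told apart between meiotic and oogenesis cells. The mitotic cells could be compared only with RA-responsive cells of ending 1. Between these DND1 was 1.69-fold (1.24–2.27) and NANOS3 10.3-fold (2.36–61.8) lower in the RA-responsive step, and the other genes are given above. The RA-responsive and meiotic steps could be compared within ending 1, where STK31 was 2.69-fold (2.34–3.11) and BOLL 2.78-fold (1.82–4.34) higher in the meiotic step, DDX4 1.52-fold (1.37–1.67) higher and DAZL 1.31-fold lower (1.17–1.48).

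The large meiotic cells, 175 of ending 1 and 177 of ending 2, allowed more. From the RA-responsive to the meiotic step STK31 was higher 3.51-fold (3.18–3.87) within ending 1 and 2.65-fold (2.43–2.89) within ending 2, and BOLL 6.64-fold (4.81–9.27) and 4.06-fold (3.05–5.47). DND1 differed between the endings. It was at 82.2 CPM (71.1–94.4) in large meiotic cells of ending 1 and at 201 CPM (187–217) in those of ending 2, so its step from the RA-responsive cells was 1.503-fold (1.26–1.79) in the one and 4.33-fold (3.69–5.09) in the other.

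Within ending 2, large oogenesis cells (209) had less of 4 genes than large meiotic cells (177). DAZL was 1.77-fold lower (1.63–1.93), DDX4 1.97-fold lower (1.86–2.09), STK31 2.20-fold lower (2.06–2.35) and BOLL 6.45-fold lower (5.01–8.36). DND1 was at 182 CPM (174–191) against 201 CPM, 1.11-fold lower (1.01–1.21), so the higher oogenesis level of DND1 seen in the smaller cells was not seen between these groups. They come from the clustering with no upper limit, where no sub-cluster had FIGLA among its 10 leading genes. The large meiotic and oogenesis groups therefore need not match those of the smaller cells. In ending 1 only 11 large oogenesis cells were found, with DND1 at 428 CPM (341–530.4) from 83 UMIs. Against the 175 large meiotic cells of that ending, DND1 was 5.21-fold (3.98–6.76) and STK31 1.95-fold (1.63–2.33) higher. DDX4 did not differ beyond its interval (1.12-fold, 0.90–1.37). DAZL was 1.79-fold (1.17–2.89) and BOLL 5.25-fold (1.42–43.8) lower, so STK31 and DDX4 differed between the endings.

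**Figure D2:**
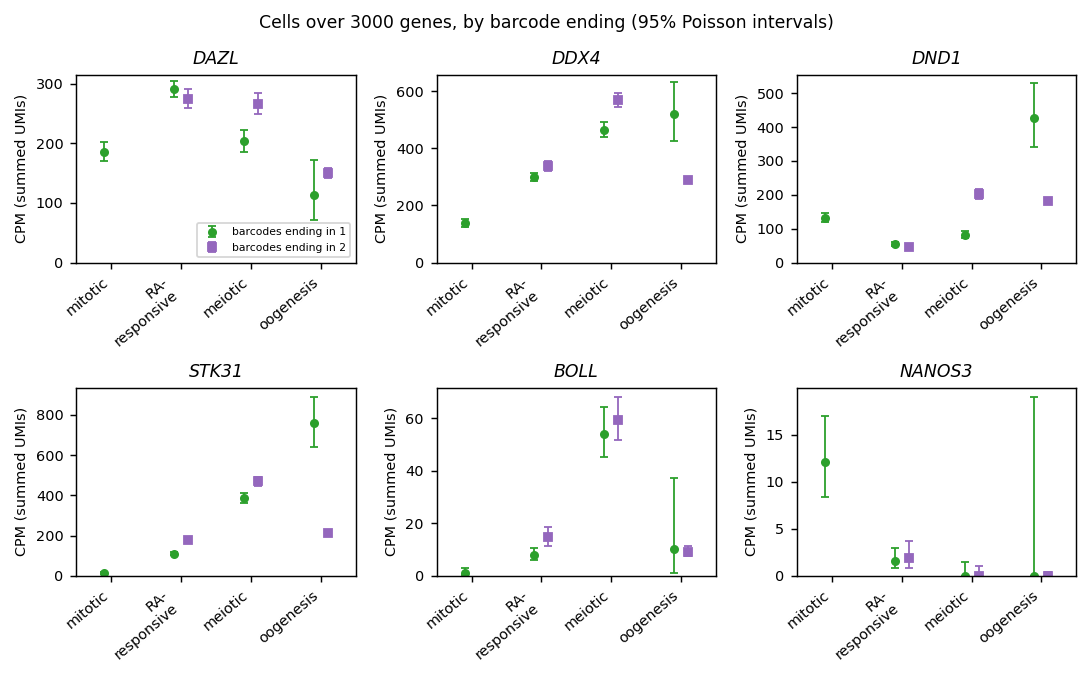
Level of each gene in CPM (linear axis) in cells over 3000 genes, by germ cell step and barcode ending, with 95% Poisson intervals and no point for groups under 10 cells. The endings lie apart for DND1 in the meiotic step (82.2 and 201 CPM) and for DND1 and STK31 in the oogenesis step, where ending 1 has 11 cells.

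The sub-clusters behind the steps show where within a step the levels lay. The oogenesis step was made of 68 cells led by FIGLA, SOHLH1 and NOBOX, transcription factors of the early oocyte, and of 409 further cells. In the 68 cells DND1 was at 333 CPM (264–414), STK31 at 477 CPM (394–572), DDX4 at 497 CPM (413–594) and DAZL at 201 CPM (149–266), the first 3 of these the highest of the 11 sub-clusters. In the 409 cells the same genes were at 157 CPM (132–185), 243 CPM (212–278), 251 CPM (219–286) and 113 CPM (92.1–137), so all 4 were lower there.

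The 68 cells were 36 of ending 1 and 32 of ending 2, and DND1 was at 281 CPM (190–401) and 374 CPM (278–491) in the one and the other. Meiotic cells of ending 1 had 72.9 CPM (62.3–84.7) of DND1, so within that ending the FIGLA-led cells lay above them, and the intervals do not meet. BOLL was highest, at 59.9 CPM (41.2–84.1), in a meiotic sub-cluster of 272 cells, which is led by histone genes and was named from 3 meiotic markers, none of them among its 10 leading genes, against 32.0 CPM (24.5–41.05) in the other meiotic sub-cluster of 749 cells.

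The RA-responsive step was not uniform either. A sub-cluster of 722 cells, nearly all of ending 1, had STK31 at 111 CPM (95.4–127) and BOLL at 11.6 CPM (7.11–17.98). Another of 502 cells, nearly all of ending 2, had STK31 at 251 CPM (219–288) and BOLL at 40.1 CPM (27.8–56.1), so BOLL overlapped its meiotic level and STK31 lay between the levels of the first sub-cluster and of meiotic cells. The last one, 229 cells whose mitochondrial UMIs had a median share of 25.3%, had 126 CPM of STK31 and 10.9 CPM of BOLL. Its DND1, at 44.5 CPM (33.4–58.2), was the lowest of any named sub-cluster, on a scale that counts those mitochondrial UMIs.

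Counts per single cell were low even in large cells. DDX4 had a median of 2 UMIs per large mitotic cell, 4 per RA-responsive, 7 per meiotic and 12 per oogenesis cell, with a highest value of 49, and STK31 had medians of 0, 1, 6 and 8 UMIs with a highest value of 45. DND1 had medians of 2, 1, 1 and 6 UMIs, so most RA-responsive cells held 1 or none. BOLL did not exceed 7 UMIs in a cell, and NANOS3 did not exceed 3. Oogenesis cells were the deepest, which is why these medians cannot be read as levels without thinning.

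Each large cell was therefore thinned to 5000 UMIs, which left out none of them, and the share of cells with at least 1 UMI was taken. After thinning, STK31 was found in 6.29% (3.18–10.97) of mitotic, 39.9% (36.0–43.8) of RA-responsive, 83.0% (78.6–86.7) of meiotic and 70.9% (64.4–76.8) of oogenesis cells, against 4.27% (3.49–5.16) of 2367 large somatic cells. At this depth mitotic cells did not differ from somatic cells beyond the intervals. Before thinning, at median depths of 14672 and 14833 UMIs, 20.0% (14.3–26.7) of mitotic and 10.4% (9.15–11.6) of somatic cells had an STK31 UMI, and these intervals do not meet.

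BOLL was found in 1.14% (0.14–4.07) of mitotic, 3.38% (2.10–5.11) of RA-responsive, 26.1% (21.6–31.1) of meiotic and 5.91% (3.18–9.89) of oogenesis cells, against 0.42% (0.20–0.78) of somatic cells. Its mitotic share overlaps the somatic one. DND1 was found in 45.7%, 25.4% and 39.8% of the cells of the first 3 steps and in 132 of 220 oogenesis cells (53.2–66.5%), against 3.59% of somatic cells, and DAZL in 57.7%, 74.8%, 66.8% and 49.1%, against 3.46%. DDX4, found in 49.7%, 74.4%, 88.6% and 78.2% of the cells, had the highest somatic share at 9.34% (8.19–10.6). NANOS3 was found in 5.14% (2.38–9.54) of mitotic and 1.29% (0.56–2.52) of RA-responsive cells and in 0 of 2367 somatic cells (0–0.156%) at this depth. Before thinning 1 of these somatic cells had a NANOS3 UMI.

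**Figure D3:**
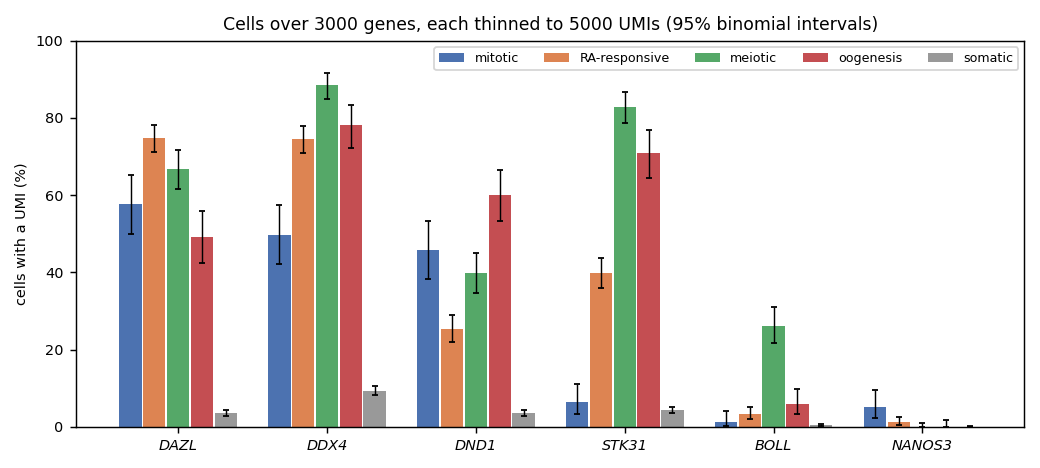
Share of cells over 3000 genes with at least 1 UMI of each gene, in percent, after thinning every cell to 5000 UMIs; bars stand for the 4 germ cell steps and for somatic cells, lines for exact 95% binomial intervals. STK31 goes from 6.29% of mitotic to 83.0% of meiotic cells, and DND1 has its low point of 25.4% in the RA-responsive step.

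In cells of 200 to 3000 genes thinned to 1000 UMIs the shares were smaller and their order much the same. STK31 was found in 1.23% of 81 mitotic, 13.6% of 1154 RA-responsive, 24.8% of 875 meiotic and 25.1% of 303 oogenesis cells, against 1.39% of 8830 somatic cells. Thinning left out 0, 299, 146, 174 and 515 shallower cells. Unthinned, at median depths of 7031, 1884, 1765, 1320 and 3951 UMIs, the shares were 11.1%, 25.7%, 44.7%, 36.3% and 4.52%. For DND1 the thinned shares were 11.1%, 7.97%, 7.43% and 17.2%, against 0.77% of somatic cells.

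How many of the 6 genes a single cell showed also moved with the step. Of large cells thinned to 5000 UMIs, 3 or more of the genes were seen together mainly in the later steps: exactly 3 in 12.6% of mitotic, 28.5% of RA-responsive, 36.6% of meiotic and 34.5% of oogenesis cells, and exactly 4 in 2.86%, 6.91%, 28.4% and 21.8%. In somatic cells 83.3% showed none and 13.3% showed 1. DDX4 and STK31 were found together in 1.71% of mitotic, 30.2% of RA-responsive, 73.9% of meiotic and 58.2% of oogenesis cells. DAZL and DDX4 were together in 26.9%, 55.9% and 59.4% of cells in the first 3 steps and in 88 of 220 oogenesis cells. The shares found together depend on depth and on the shares of the single genes, so they say nothing on cells that truly lack a gene.

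As germline genes, 5 of the 6 were at least 2-fold higher in germ cell-like than in somatic cells, against 15.8% of the 9486 genes tested, and 0 were lower, against 12.3%. In large cells the same 5 passed, against 15.1%, and 0 were lower, against 12.5%. DAZL was at 205 CPM (196–215) in germ cell-like and 10.7 CPM (9.73–11.8) in somatic cells, 19.1-fold apart (17.2–21.3). DDX4 was at 320.2 CPM (309–332) against 25.7 CPM (24.1–27.3), 12.5-fold (11.6–13.4), and STK31 at 207 CPM (198–217) against 11.9 CPM (10.8–13.005), 17.4-fold (15.8–19.3). These 3 were the most abundant of the 6 in germ cell-like cells.

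DND1 was at 92.8 CPM (86.7–99.3) against 7.24 CPM (6.43–8.13), 12.8-fold (11.2–14.7), and BOLL at 21.2 CPM (18.3–24.4) against 0.96 CPM (0.68–1.32), 22.1-fold (15.5–32.1). NANOS3 was not counted, since both its levels lie under the 10 CPM added: it was at 1.31 CPM (0.68–2.29) from 12 UMIs against 1 UMI in somatic cells, a ratio of 51.9 with a counting interval from 7.68 to 2218. The ratios held within each ending, from 10.2-fold (DDX4) to 15.0-fold (DAZL) for the 5 genes in ending 1 and from 12.7-fold (DND1) to 48.1-fold (BOLL) in ending 2.

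The low somatic signal was not the same in every class. Within ending 1, stroma-like cells had between 4.34% (DND1) and 6.87% (STK31) of the germ cell level of the same ending for 5 genes, and the 5 intervals overlap. Granulosa-like cells of ending 1 had 8.34% (7.06–9.79) of the germ cell level of DAZL and 7.21% (5.93–8.69) of that of STK31, but 13.5% (12.05–15.04) of that of DDX4. Ovarian surface epithelium-like cells had 12.9% (9.90–16.4) for DDX4 and 4.93% (2.92–7.83) for DAZL. So DDX4 lay above DAZL in both of these classes, and above STK31 in the granulosa-like cells, beyond the intervals.

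Within ending 2, granulosa-like cells had 7.50% (6.30–8.87) for DDX4, 7.81% (5.89–10.2) for DND1, 4.21% (3.02–5.75) for DAZL and 4.72% (3.68–5.98) for STK31. Macrophage-like cells of that ending had 19.5% (10.6–33.2) of the germ cell level of DND1, from 14 UMIs in 190 cells. Their cluster had GZMB and CD48 among its leading genes and need not hold macrophages alone. At resolution 1.0 a macrophage cluster of 133 cells and a lymphocyte cluster of 96 cells were named. How much of the somatic signal is free RNA from broken germ cells was not tested.

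**Figure D4:**
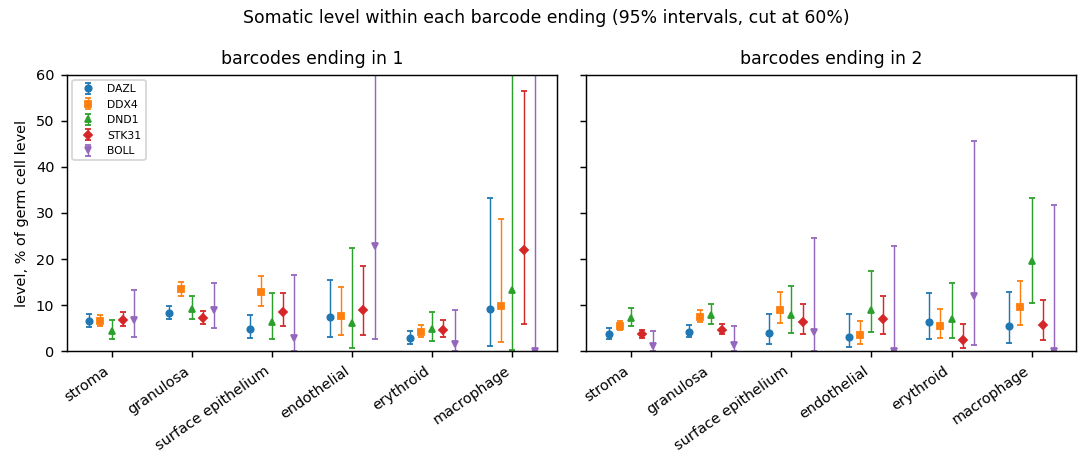
Level of 5 genes in 6 somatic classes as percent of their level in germ cell-like cells of the same barcode ending (linear axis, intervals end at the top of the axis where they pass it), with 95% intervals for counting error. In ending 1 the DDX4 point is the highest in granulosa-like cells (13.5%) and surface epithelium-like cells (12.9%), with intervals that overlap that of BOLL, while the 5 genes lie between 4.34% and 6.87% in stroma-like cells.

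Other genes of the germ granule and the piRNA pathway, 21 of a list of 22 that are in the table, give the setting for DDX4 and STK31. Of 19 tested, 18 were at least 2-fold higher in germ cell-like than in somatic cells and 0 lower, against 15.8% and 12.3% of all genes, with a median log2 ratio of 2.08 beside 0.11 over all genes. From the mitotic to the RA-responsive step 12 of 20 were higher, against 11.6% of all genes (median log2 ratio 1.18 beside 0.10), and PIWIL4, a nuclear PIWI protein, was lower. From the RA-responsive to the meiotic step 5 of 19 were higher, against 7.18% of all genes: TDRD5 and TDRD9, Tudor proteins, ASZ1, a germ granule protein found at mitochondria, DDX25, a helicase, and FKBP6, a co-chaperone of piRNA making.

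In the oogenesis step members of the list stood on both sides. PIWIL1, PIWIL2, TDRD9, ASZ1 and MOV10L1 were lower than in the meiotic step, 5 of 20 against 13.6% of all genes, while PIWIL4, TDRD1 and PNLDC1, the trimmer of piRNA 3′ ends, were higher, 3 of 20 against 10.8%. PNLDC1 went from 13.7 CPM (9.47–19.1) to 153 CPM (131–178). The 4 most abundant genes of the list had their highest values in the oogenesis step, without passing the 2-fold rule over the meiotic step. GTSF1 went from 34.5 CPM (20.8–53.9) in mitotic over 176 CPM (160–193) in meiotic to 253 CPM (224–284) in oogenesis cells, and MAEL from 18.2 CPM (8.71–33.4) over 129.8 CPM (116–145) to 194 CPM (169–221). FKBP6 went from 9.08 CPM (2.95–21.2) over 162 CPM (147–179) to 202 CPM (176–229) and HENMT1, which methylates piRNA ends, from 20.0 CPM (9.97–35.7) over 112 CPM (99.0–126) to 128 CPM (108–151), so for these the meiotic and oogenesis intervals overlap. DDX4 was lower in the oogenesis than in the meiotic step (304 against 435 CPM).

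**Figure D5:**
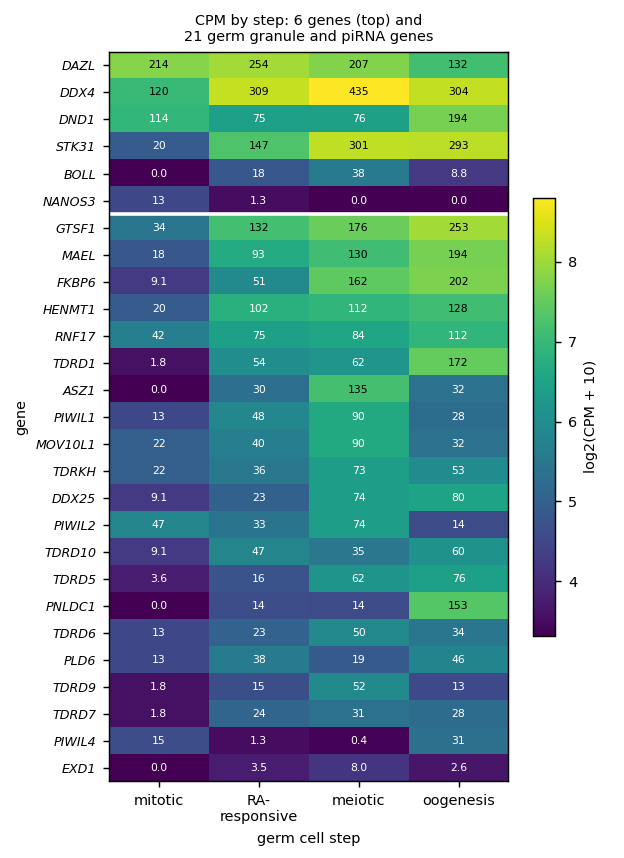
CPM of the 6 genes (above the white line) and of 21 germ granule and piRNA genes (below it) in the 4 germ cell steps of cells of 200 to 3000 genes; colour gives log2(CPM + 10) and the printed value the CPM. ASZ1, PIWIL1, PIWIL2 and MOV10L1 are brightest in the meiotic step, as DDX4 and BOLL are. STK31 is nearly alike in the meiotic and oogenesis steps (301 and 293 CPM), and GTSF1, MAEL, TDRD1 and PNLDC1 are brightest in the oogenesis step.

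Of 40 other mRNA regulators and partners, 35 are in the table. Of 31 tested, 14 were at least 2-fold higher in germ cell-like cells, against 15.8% of all genes, and 0 lower (median log2 ratio 0.86 beside 0.11), among them RBM46 at 380.0 CPM (367–393) against 18.8 CPM (17.5–20.2) and MEIOC at 139.8 CPM (132–148) against 6.68 CPM (5.90–7.54), both needed for meiotic prophase. FXR1 and PABPC1, general mRNA-binding proteins, stood at 433 and 325 CPM in germ cell-like cells and at 204 and 341 CPM in somatic cells.

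MEIOC, the 1 gene 2-fold higher among the 30 tested from the RA-responsive to the meiotic step (7.18% of all genes were), went from 16.3 CPM (7.47–31.0) in mitotic over 74.3 CPM (65.8–83.5) to 328 CPM (306–351) in meiotic and 17.6 CPM (10.8–27.2) in oogenesis cells. This order of steps is that of BOLL. ELAVL2 was the 1 lower gene. ZAR1, an oocyte protein that stores maternal mRNA, was at 8.44 CPM (5.23–12.9) in meiotic and 368 CPM (333–405) in oogenesis cells, where 5 of 30 genes of the list were higher and 2 lower, against 10.8% and 13.6% of all genes. LIN28A, a let-7 regulator of early germ cells, was the 1 lower gene from the mitotic to the RA-responsive step, at 61.7 against 7.45 CPM, while 5 of 31 were higher, against 11.6% of all genes.

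Over the 11 germ cell sub-clusters, log2(CPM + 10) of the 6 genes was compared with that of 8975 genes. The 11 include the unnamed sub-clusters of 630, 299 and 144 cells. The sub-clusters share libraries and differ in depth and mitochondrial share, so Pearson's r is only a measure of likeness. NANOS3 was most like NANOG (r = 0.97), SOX15 (0.96) and S100P (0.96), a likeness that rests on the mitotic sub-cluster. BOLL was most like CENPK, USP37 and FAM111B (0.95 to 0.96), DND1 like ACOT4, TRIM45 and ARHGEF33 (0.89 to 0.93), and STK31 like PTK2 (0.97), ATP2C1 and NGLY1 (both 0.95). DAZL was most like CCDC117 (0.97), AP1G1 and WDR75, and DDX4 like RNF219 (0.96), ZNRF2 and PLEKHA1.

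Among the 6 genes themselves the most alike were DDX4 and STK31 (r = 0.88), then STK31 and BOLL (0.79) and DDX4 and BOLL (0.78). STK31 and NANOS3 were the least alike (−0.65). DND1 reached at most 0.53, with DDX4.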

How the data were processed

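The deposited values are raw counts, which the authors obtained by running Cell Ranger 3.0.2 against the Macaca_fascicularis_5.0 genome and loading the result into Seurat. Neither doublets nor free RNA are stated to have been dealt with. The table has no gene in fewer than 3 cells, no cell under 200 genes, and still holds cells over 3000 genes. The 6 genes, the gene lists and the rules were chosen with earlier results of these data known.

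Cells of 200 to 3000 genes were normalized and clustered with Seurat 5.3.0 in R 4.3.3 (2000 variable genes without the 6, 18 principal components, 20 neighbours, resolution 0.6). For the germ cell-like cells a new clustering at resolution 0.8 was used, the lowest with 11 sub-clusters. A name needed 3 markers, each 1.5-fold higher than in other cells and in 5% of cells, with 10 CPM added. It was withheld where another class had more markers among the 10 leading genes. Breaking ties by leading markers, and withholding names where mitochondrial transcripts lead or where fewer than 2 markers lead a shallow cluster, were decided after seeing the data.

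Levels, ratios and shares were computed with scipy 1.17.1, numpy 2.4.6 and pandas 2.3.3 under Python 3.11.15, Scrublet scores with scanpy 1.11.5 and plots with matplotlib 3.10.9. Intervals are at 95%, exact Poisson for CPM, conditional exact for ratios and Clopper-Pearson for shares. They cover counting error only, and with 0 UMIs the limit is 3 UMIs over the group. The ratio intervals, the calls and the thinning were tested on simulated data.

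Named are the 6 genes, the 3 genes most like each over sub-clusters of at least 50 cells (at least 20 CPM in 1 of them), and of the 2 lists the 4 with the highest CPM in germ cell-like cells and any 8-fold changed. Other list genes are named from the 2-fold calls, after their values were seen. TDRD12, NANOS1, NANOS2, IGF2BP2, YTHDC2 and CNOT2 of the lists have no value here. Sequences of the genes were not analysed here.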

Additional observations from a re-analysis of the deposited data

Results flagged for a closer look

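A total of 3 clusters of cells of 200 to 3000 genes got no name, so the comparisons above do not use them, and each held some of the 6 genes above the somatic level: 5 genes in the first, and DDX4, DND1 and STK31 in the other two. The cluster of 1396 cells with a median of 702.5 UMIs, 1351 of them of barcode ending 1, had DAZL at 108 CPM (90.7–127), DDX4 at 151 CPM (131–174), STK31 at 84.0 CPM (69.0–101), DND1 at 38.5 CPM (28.6–50.8) and BOLL at 6.16 CPM (2.66–12.1), which for the first 4 genes is 40.5% to 52.6% of the level of germ cell-like cells. It is led by a mixture of genes, among them TUBB2B and IRX3, with 3 markers of its best class.

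In a cluster of 459 cells, mitochondrial UMIs had a median share of 79.5%, and it had DDX4 at 44.1 CPM (33.0–57.6), STK31 at 29.9 CPM (20.96–41.4) and DND1 at 18.3 CPM (11.5–27.7). In the other, of 987 cells, that share was 48.7%, with DDX4 at 38.1 CPM (30.0–47.9), STK31 at 19.6 CPM (13.9–26.9) and DND1 at 16.5 CPM (11.3–23.3). Nearly all cells of both are of barcode ending 2. The somatic levels beside these values are 25.7 CPM for DDX4, 11.9 CPM for STK31, 10.7 CPM for DAZL, 7.24 CPM for DND1 and 0.96 CPM for BOLL. The somatic cells had a median mitochondrial share of 8.70%, and mitochondrial UMIs count in the total. Levels of the clusters rich in them are therefore lowered beside the somatic ones. The cluster of 459 cells passed 5 germ cell markers and had the oogenesis marker ASTL among its leading genes. Its name was withheld because mitochondrial transcripts lead. The cluster of 987 cells passed 2 granulosa markers, too few for a name. Which cells these are was not tested.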

How the results depend on the processing

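No paired analysis was possible because the table pools both fetuses and each stage has 1 library. Over 282 log2 ratios of single genes under the alternatives, 186 moved by less than their counting interval and 96 by more, and 0 of those reported as at least 2-fold changed sign. The number of genes 2-fold higher in germ cell-like cells was within 1.5 times the reported one in all settings run. From the RA-responsive to the meiotic step, where 0 genes were reported higher, it was 1 at resolutions 0.4 and 1.0, with the 6 genes among the variable genes and in barcode ending 1 alone, 2 with 30 principal components, at most 10% mitochondrial UMIs, 1 CPM added or without the highest Scrublet scores (697 and 606 cells), and 3 with no upper limit on genes or in cells over 3000 genes alone; with 1 CPM added 1 gene was lower. STK31 there ranged from 0.80 to 1.61 and BOLL from 0.74 to 1.70 (log2), while DND1, reported at 0.02, ranged from −0.20 to 1.40 and so turned sign. From the meiotic to the oogenesis step the count of higher genes, 1 as reported, was 0 with 30 principal components, at most 10% mitochondrial UMIs, resolution 1.0, the 6 genes among the variable genes, no upper limit, cells over 3000 genes alone or without the highest Scrublet scores, and the log2 ratio of DND1 ranged from 0.28 to 1.34 against 1.25; that of STK31, reported at −0.04, ranged from −0.93 to 0.03. The sub-cluster with FIGLA among its 10 leading genes counted as oogenesis in the reported setting. Such a sub-cluster was named meiotic with 30 principal components (150 cells), at resolution 1.0 (299 cells) and without the highest Scrublet scores (250 cells). With the 6 genes among the variable genes it was unnamed (259 cells). With no upper limit on genes, no sub-cluster had FIGLA among its 10 leading genes. The same held with at most 10% mitochondrial UMIs and at resolution 0.4. The meiotic and oogenesis groups therefore need not hold the same cells across settings. From the mitotic to the RA-responsive step the count of lower genes was 0 with the mean of single-cell CPM or at resolution 1.0. Level and share peaked in the same step for 5 genes, and for 3 with no thinning. Single barcode endings and cells over 3000 genes alone were chosen after seeing the data. Single endings held too few cells for the meiotic to oogenesis step, and ending 2 for the earlier steps. The low UMI count of NANOS3 limits its ratios most. The causes were not tested.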

Other observations

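Of the 4105 germ cell-like cells, 3 sub-clusters matched no step. One of 630 cells, nearly all of barcode ending 1 with a median of 734 UMIs, had STK31 at 296 CPM (251–347), DDX4 at 352 CPM (303–407), DAZL at 225 CPM (186–269) and BOLL at 27.1 CPM (14.8–45.5), values within the range of the RA-responsive and meiotic steps. One of 144 cells, whose mitochondrial UMIs had a median share of 48.3%, had STK31 at 257 CPM (206–317) and DDX4 at 230 CPM (182–288), but DAZL at 56.1 CPM (33.8–87.6). That DAZL value is under the lowest step, oogenesis, where the median mitochondrial share was 7.41%. Mitochondrial UMIs count in the total, so these levels are not on a like scale. The third, of 299 cells, had DAZL at 20.9 CPM (9.02–41.2), DDX4 at 54.9 CPM (34.0–83.9) and STK31 at 31.3 CPM (16.2–54.8), nearer to the somatic levels than to any later step.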
